A study of Homo sapiens with 41 samples.

Results

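The mitochondrial ribosomal protein genes were taken as every protein-coding nuclear gene of GRCh38 whose symbol starts with MRPL or MRPS followed by a digit. The rule found 77 of the 19970 protein-coding genes on chromosomes 1 to 22 and X, of which 49 are MRPL genes and 28 are MRPS genes. The choice used names only and no measured value. The symbol leaves out ribosomal proteins of other names such as DAP3, PTCD3 and AURKAIP1, which were counted among other mitochondrial translation genes.

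The mitochondrial ribosome, or mitoribosome, makes the few proteins that mitochondrial DNA encodes, all of them core parts of the respiratory chain and ATP synthase. Its RNAs come from mitochondrial DNA, but its proteins are encoded in the nucleus, made in the cytosol and imported. MRPL names mostly mark the large subunit, which joins amino acids, and MRPS names mostly mark the small subunit, which reads the message. Many are counterparts of the bacterial protein of the same number, and others exist only in mitochondria. The genes are expressed in nearly every cell type, and ETS family factors, NRF1 and YY1 are known regulators of nuclear genes for mitochondrial proteins.

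The study mapped chromatin in the cell line MDA-MB231 (human, epithelial, from triple-negative breast cancer), with 100000 cells a library. Cells given Nexturastat A (NextA), an inhibitor of the deacetylase HDAC6, at 5 µM for 2 days were compared with control cells (Ctrl), and cells with a hairpin against HDAC6 (shHDAC6) with cells carrying a control hairpin (shCtrl). Of 41 samples, 32 had a peak list. The lists are HDAC6 ChIP in NextA, shHDAC6 and Ctrl cells (2 each), HDAC6 CUT&Tag in Ctrl cells (2), ChIP with an antibody to acetylated histone H3 named pan-acetyl in the labels in NextA and Ctrl cells (2 each), ChIP of the large subunit of RNA polymerase II (PolII) in NextA, Ctrl, shHDAC6 and shCtrl cells (2 each) and ATAC-seq, which marks open chromatin, in the same 4 groups (3 each). The labels name neither a hairpin sequence nor a clone, and no vehicle is named for Ctrl cells. Whether replicates came from separate cultures is not stated.

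The HDAC6 ChIP lists held 235 to 63833 peaks, the pan-acetyl lists 1418 to 61186, the CUT&Tag lists 14458 and 22481, the PolII lists 19519 to 31198 and the ATAC lists 25878 to 79666. Read depth is not given in the lists, so the absence of a peak cannot be told apart from low depth. In NextA and Ctrl cells the first HDAC6 ChIP replicate was made with a CST antibody and the second with a Novus one. The second NextA list holds 235 peaks and kept 0.103% of its peak numbering. The HDAC6 gene itself had PolII peaks in both shHDAC6 and both shCtrl lists, at mean percentiles of 68.8 and 42.1, and neither PolII ChIP nor ATAC measures the transcript that a hairpin acts on. Of 6 markers of this line and of breast epithelium, VIM, CD44, KRT8 and KRT18 were open in all 3 Ctrl ATAC lists, EPCAM in 2 and KRT19 in 0. The leukocyte gene PTPRC, the neuronal gene RBFOX3 and the liver gene ALB were open in 0 of these lists, while the T cell gene CD3E and the neuronal gene SYT1 were open in 3. The hairpin cells differed from Ctrl cells in these markers. In both shCtrl and shHDAC6 cells VIM and SYT1 were open in 3 ATAC lists, and CD44, KRT8, KRT19, EPCAM and CD3E in 0. KRT18 was open in 2 shCtrl lists and 1 shHDAC6 list. CD44 had PolII peaks in both Ctrl and both shHDAC6 lists but in neither shCtrl list.

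A gene counted as marked in a list when a peak overlapped the 1 kb on either side of its start by at least 1 bp. RefSeq promoters (GRCh38.p14) gave the start of 69 members. For 7 others (MRPL10, MRPL13, MRPL15, MRPL21, MRPL23, MRPL35 and MRPS28) whichever gene end was marked in more lists stood for it, and for MRPL2 both ends. A peak's height is the authors' own fold over the caller's background, a linear ratio, and its percentile is its rank by that fold within its own list. Members share their windows more often than other genes do: 29 of 77 (37.7%) had another protein-coding start within 1 kb, against 13.5% of the 19104 genes with a single start point. A peak there cannot be given to one of the pair. The closest are MRPS6 with SLC5A3 (0 bp), MRPL27 with EME1 (45 bp), MRPL43 with TWNK (46 bp) and MRPL49 with FAU (49 bp), and MRPL46 and MRPS11 (320 bp) are both members.

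Promoters are printed for the 3 members with an HDAC6 peak in all 4 Ctrl lists (MRPL11, MRPL19 and MRPL40), for MRPL36, which carried a pan-acetyl peak in all 4 lists of that assay, and for MRPL45, which gained PolII after knockdown. Each is the 250 bases before the RefSeq start on the gene's own strand (GRCh38.p14). Capitals mark matches, on either strand, to the ETS core CCGGAAG, the NRF1 core GCGCANGCG and the YY1 core AANATGGCG. They lie at chr11:66438849-66439098 (minus strand, MRPL11), chr2:75646533-75646782 (plus, MRPL19), chr22:19432295-19432544 (plus, MRPL40), chr5:1799838-1800087 (minus, MRPL36) and chr17:38296918-38297167 (plus, MRPL45).
MRPL11: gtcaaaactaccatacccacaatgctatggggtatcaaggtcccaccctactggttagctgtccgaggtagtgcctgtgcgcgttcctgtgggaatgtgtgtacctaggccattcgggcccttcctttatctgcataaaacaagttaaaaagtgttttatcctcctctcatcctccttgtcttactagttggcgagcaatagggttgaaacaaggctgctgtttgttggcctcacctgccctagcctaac
MRPL19: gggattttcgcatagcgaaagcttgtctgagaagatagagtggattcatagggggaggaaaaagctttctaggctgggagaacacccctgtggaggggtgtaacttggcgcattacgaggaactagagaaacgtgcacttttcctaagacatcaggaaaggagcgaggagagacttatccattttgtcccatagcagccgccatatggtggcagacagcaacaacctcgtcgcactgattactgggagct
MRPL40: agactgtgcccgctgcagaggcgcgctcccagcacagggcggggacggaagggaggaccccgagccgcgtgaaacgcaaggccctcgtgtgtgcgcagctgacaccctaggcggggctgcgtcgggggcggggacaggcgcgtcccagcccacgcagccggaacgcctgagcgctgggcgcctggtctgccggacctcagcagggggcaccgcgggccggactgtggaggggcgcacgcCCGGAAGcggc
MRPL36: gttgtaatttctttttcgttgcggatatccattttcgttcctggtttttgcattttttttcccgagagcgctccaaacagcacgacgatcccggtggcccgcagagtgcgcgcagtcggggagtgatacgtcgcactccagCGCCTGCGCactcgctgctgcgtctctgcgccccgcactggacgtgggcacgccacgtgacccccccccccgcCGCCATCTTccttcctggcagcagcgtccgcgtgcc
MRPL45: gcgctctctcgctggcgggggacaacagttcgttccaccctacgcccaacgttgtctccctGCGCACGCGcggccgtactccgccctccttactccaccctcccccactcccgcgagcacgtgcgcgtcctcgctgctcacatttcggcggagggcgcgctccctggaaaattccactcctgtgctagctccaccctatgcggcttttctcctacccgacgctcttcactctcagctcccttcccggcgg

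The MRPL11 and MRPL19 windows hold none of these 3 cores and have a GC content of 49.2% and 50%. The MRPL40 window holds an ETS core close to its start and has a GC content of 75.6%. The MRPL36 window holds an NRF1 core and a YY1 core at 62.4% GC, and the MRPL45 window an NRF1 core at 66% GC.

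Over the 69 members with a promoter, the ETS core was found in 23 (33.3%), against 11.7% of 15811 promoters of all genes and 18.6% of 8200 promoters of genes open in all 3 Ctrl ATAC lists. The NRF1 core was in 15.9% of members, 9.37% of all promoters and 14.6% of open ones. The GC box GGGCGG was in 52.2%, 54.9% and 70.3%, the CCAAT box CCAAT in 29.0%, 34.1% and 37.7%, and the TATA box TATAAA in 2.90%, 9.51% and 4.48%, in the same order. The YY1 core was in 3 members (4.35%), MRPL52, MRPL36 and MRPL32, and in 1.54% of all promoters. With the 50 bases after the start included, a window chosen after values were seen, it was in 18 members (26.1%), against 4.68% of all and 7.95% of open promoters. The median GC content was 59.6% in members, 62% in all promoters and 65.2% in open ones. For comparison, the ETS core was in 29.4% of cytosolic ribosomal protein promoters and 23.1% of nuclear oxidative phosphorylation promoters, and the NRF1 core in 11.8% and 27.7%. In the longer window the YY1 core was in 13.2% and 24.6% of them. A match describes the letters and is not a bound site.

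The starts were open in nearly every sample. Between 72 and 75 of the 77 members had an ATAC peak in each of the 12 lists, which is 93.5% to 97.4%, against 52.2% to 59.9% of all genes. All 3 Ctrl lists had a peak at 68 members (88.3%), against 49.4% of all genes. PolII was as common, with 75 or 76 members marked in each of 8 lists, against 55.1% to 64.9% of all genes. In total 65 members were marked in all 20 PolII and ATAC lists, a count that was not made for all genes or open genes. Genes open in all 3 Ctrl ATAC lists, a set used for comparison after values were seen, had PolII peaks at 93.3% to 97.4%, so the members lay close to other open genes in this measure. The plot of shares by list shows this for each sample.

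**Figure D1:**
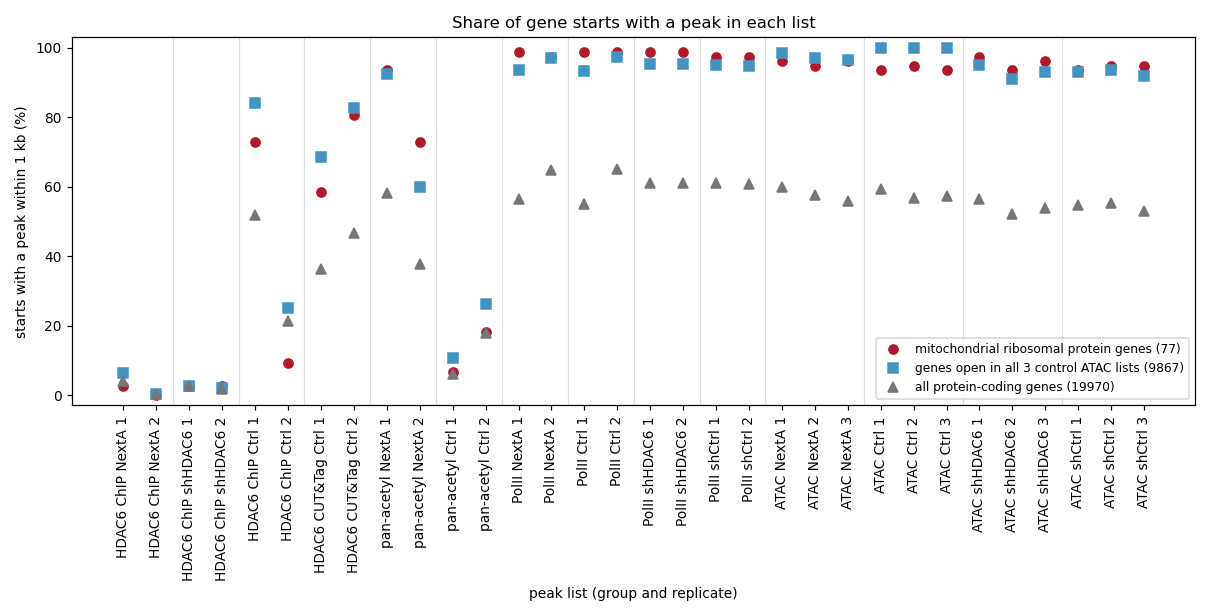
Share of gene starts with a peak within 1 kb (vertical axis, %) in each of the 32 peak lists (horizontal axis), for the 77 mitochondrial ribosomal protein genes (circles), genes open in all 3 Ctrl ATAC lists (squares) and all protein-coding genes (triangles). Members lie between 93.5% and 97.4% in the ATAC lists, while their HDAC6 and pan-acetyl shares differ widely between lists of the same group.

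Within the Ctrl ATAC lists the highest members were MRPL37, MRPL50, MRPS30, MRPS9 and MRPL32. MRPL37, a protein found only in mitochondrial ribosomes, had folds of 14.2, 14.9 and 12.8 and a mean percentile of 98.2 ± 2.02 (SD, n = 3). MRPL50 had folds of 13.6, 12.9 and 16.7 (97.7 ± 2.98), and MRPS30, which despite its name sits in the large subunit, 16.0, 11.6 and 10.4 (96.4 ± 2.66). MRPS9 followed at 95.8 ± 2.06 and MRPL32 at 95.7 ± 6.96. These 5 neighbours in the order do not differ beyond their spread over lists. MRPL37 shares its window with CYB5RL, MRPL50 with ZNF189 and MRPL32 with the proteasome gene PSMA2. Further down, MRPS12, a decoding-centre protein whose window holds the start of SARS2 (mitochondrial seryl-tRNA synthetase), had a mean percentile of 93.2. MRPS27, which shares its window with PTCD2, had 91.8, and MRPL47, with the complex I gene NDUFB5, 91.4.

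At the lower end, MRPL14 had a Ctrl ATAC peak in the first list only, at a fold of 3.43. MRPL22, a protein of the peptide exit tunnel, had folds of 4.47 and 4.35 in 2 lists and MRPS34 folds of 4.85 and 4.59 in 2. MRPS21, MRPL45, MRPL34 and MRPS6 also had a peak in 2 of the 3 lists. MRPL23 and MRPL35 had 0 ATAC peaks at either gene end in 12 lists. At the end used, PolII marked MRPL35 in each of the 8 lists and MRPL23 in the first NextA and the first Ctrl list. Neither gene had a RefSeq start to check that end against.

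The ATAC summits of members lay close to the start. Their median position ran from -88 to -39 bp relative to the start over the 12 lists, against -88 to -60 bp for all genes, and 48.5% to 74.6% of members had the summit within 100 bp of the start, against 36.6% to 47.2% of all genes. In the other mitochondrial translation genes that share was 50% to 71.9% and in the cytosolic ribosomal protein genes 23.8% to 59.4%. The median peak width at members was 641 to 1014 bp.

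For PolII in Ctrl cells the highest members were MRPL10, MRPL17, MRPL36, MRPL15 and MRPS16. MRPL10, a protein of the ribosomal stalk, had folds of 7.45 and 18.7 at percentiles of 95.4 and 98.8. MRPL17 had folds of 6.56 and 17.7 and MRPL36 folds of 8.07 and 11.6. The lowest was MRPL11, at the base of the same stalk, with folds of 2.78 and 6.78 at percentiles of 4.75 and 59.2, so its 2 lists disagree. MRPL28 (62.0 and 24.8) and MRPL1 (60.3 and 26.5) showed a like gap. MRPL23 and MRPL34 were each marked in 1 of 2 Ctrl lists. The map of members by list shows that PolII and ATAC marks run through nearly all rows, while HDAC6 marks do not.

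**Figure D2:**
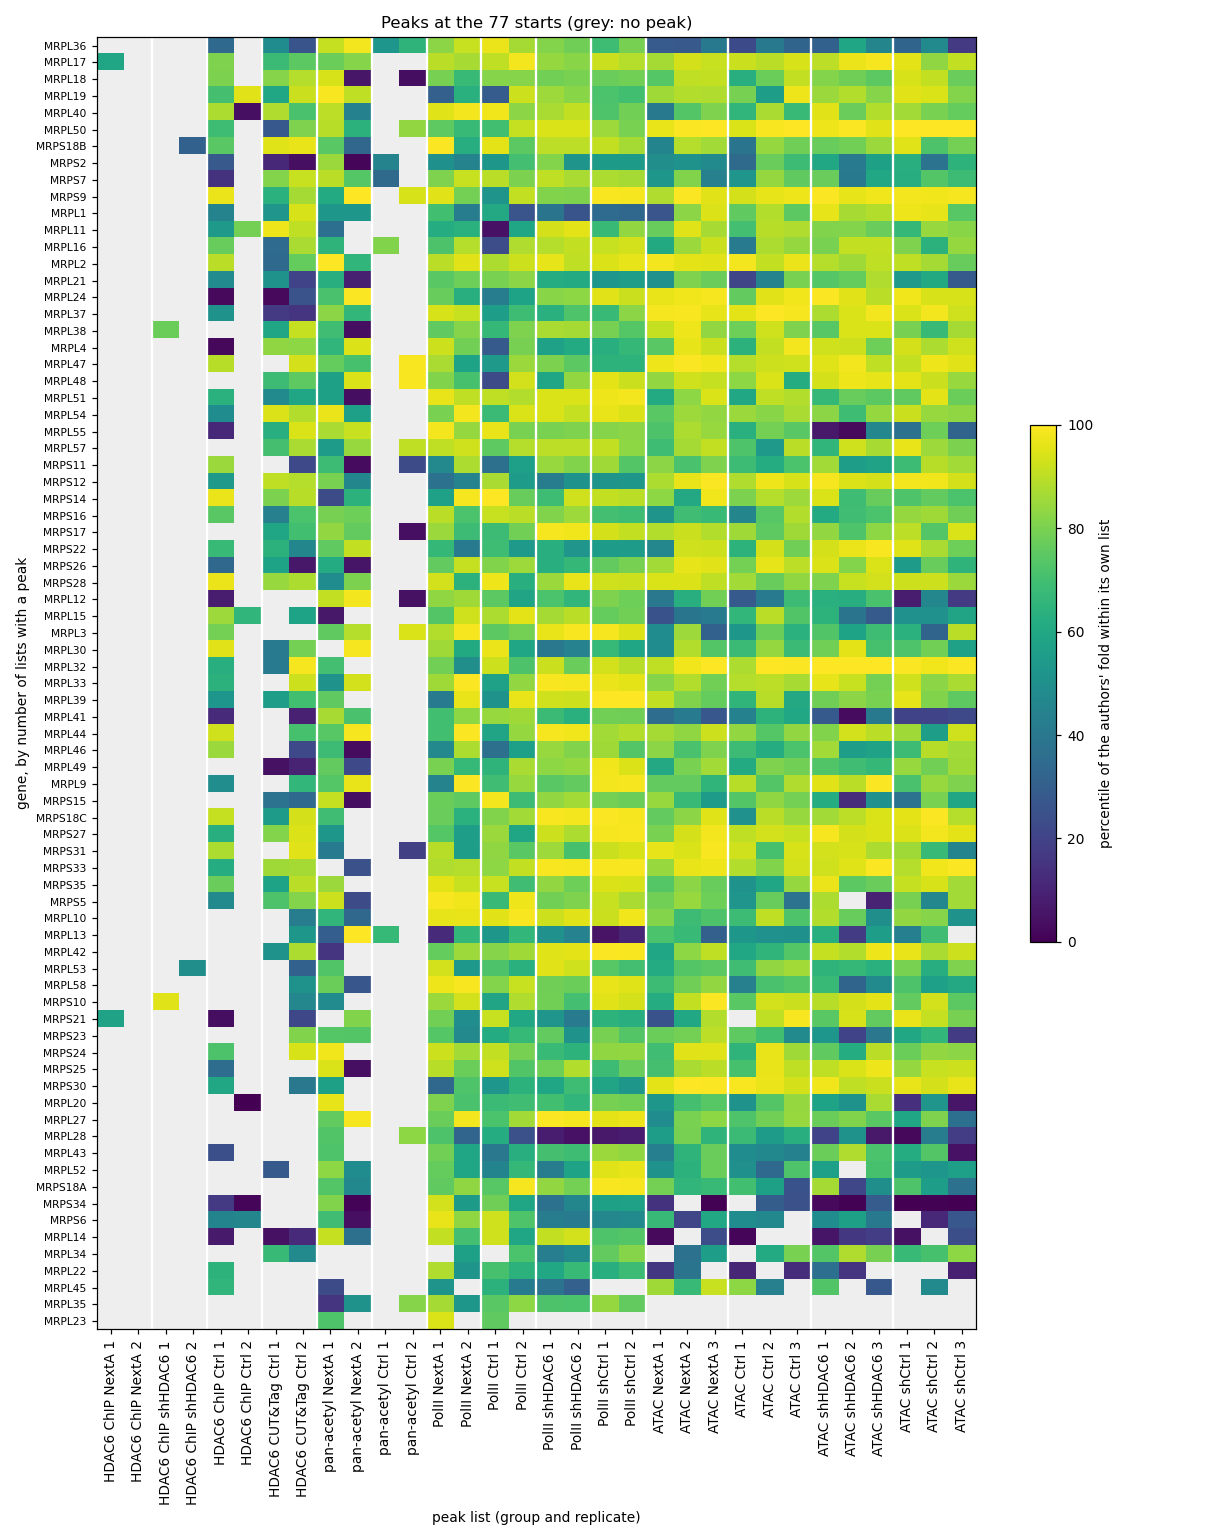
Within-list percentile of the peak fold (colour, 0 to 100) at each of the 77 starts (rows, by number of lists with a peak) in each of the 32 lists (columns); grey means no peak. HDAC6 ChIP is nearly empty in NextA and shHDAC6 columns, and the pan-acetyl NextA columns hold 72 and 56 members, against 5 and 14 in the Ctrl columns.

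HDAC6 occupancy at members depended on the list. In Ctrl cells 56 members (72.7%) had a peak in the CST ChIP list, against 51.7% of all genes and 84.1% of open genes, but only 7 (9.09%) in the Novus ChIP list, against 21.3% and 25.2%. CUT&Tag with the Novus antibody marked 45 and 62 members. A peak in both CUT&Tag lists was found at 44 members (57.1%), against 34.2% of all genes and 65.5% of open genes. A peak in both ChIP lists was found at 6 (7.79%), against 14.4% and 22.0%. All 4 lists marked 3 members (3.90%), against 7.82% of all genes and 14.7% of open genes, so members were not marked more often than open genes by any of these rules. Another 34 of the 77 members were marked in 3 of the 4 lists, as were 27.06% of all genes and 51.03% of open genes. None of the 4 lists marked 5 members, while 35.32% of all genes and 4.804% of open genes were marked in none. Without the Novus ChIP list, 36 members were marked in the other 3, a count for which no share over all genes was computed. With a −log10 q of at least 5 no member was marked in either ChIP list, where 41 and 20 of all 19970 genes were.

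The 3 members in all 4 lists are large-subunit proteins. MRPL11 had folds of 3.10 and 2.46 by ChIP and 4.89 and 4.50 by CUT&Tag. MRPL19, a counterpart of the bacterial protein of that number, had 3.28 and 2.79 by ChIP and 3.49 and 4.60 by CUT&Tag. MRPL40, known only in mitochondrial ribosomes, had 3.60 and 2.12 by ChIP and 4.15 and 3.78 by CUT&Tag, and the start of HIRA lies 812 bp away. Their percentiles ran from 4.29 (MRPL40 in the Novus ChIP list) to 97.5 (MRPL11 in the first CUT&Tag list), so they are not high in every list. The centres of HDAC6 peaks at members lay a median of 87.5 to 169 bp from the start over the 4 lists. The range was 176 to 259 bp for all genes and 164 to 234 bp for open genes. The 87.5 bp comes from only 7 members, in the Novus ChIP list.

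With NextA, HDAC6 peaks at members were nearly absent. The 2 NextA lists marked 2 and 0 members, against 56 and 7 in the Ctrl lists. Of all genes they marked 4.02% and 0.185%, against 51.7% and 21.3% in the Ctrl lists. All 6 members with a peak in both Ctrl ChIP lists had none in either NextA list, and were called lost, but so were 91.5% of the 2881 genes that could be. They are MRPL19, MRPL11, MRPL15, MRPL40, MRPS6 and MRPS34. MRPL15 had Ctrl folds of 3.53 and 2.37, MRPS6 3.02 and 2.27 and MRPS34 2.80 and 1.96. MRPS6 and MRPS34 are small-subunit proteins and the others belong to the large subunit. MRPS6 shares its start with SLC5A3, and MRPS34 lies 324 bp from EME2. None of 20 unmarked members was gained, with a background of 0.0%. The members marked in the first NextA list were MRPS21 and MRPL17, at folds of 3.67 and 3.72. The number of peaks in a list moved with this result, 3256 and 235 in NextA against 28590 and 63833 in Ctrl, and its part in it was not tested. Cut to the 235 strongest peaks of each list, 0 members were marked in any of the 4 lists. Of all genes these peaks marked only 2 and 37 with NextA and 4 and 56 in Ctrl, and 0 were lost. The cut is thus too short to tell whether the call at members holds. Without the Novus Ctrl list, 54 of 56 members were called lost, with 92.4% of all genes.

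In shHDAC6 cells the 2 HDAC6 ChIP lists, both with the Novus antibody, marked 2 members each (2.60%) and none in common, against 2.51% and 1.72% of all genes. MRPL38 and MRPS10 stood in the first at folds of 2.46 and 2.66, and MRPS18B and MRPL53 in the second at 2.80 and 2.88. No shCtrl list of HDAC6 was used, so these stand beside the 56 and 7 members of the Ctrl cells without a comparison.

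Acetylated histone H3 marked more members in both NextA lists than in either Ctrl list. The 2 NextA lists marked 72 and 56 members (93.5% and 72.7%), against 5 and 14 in the Ctrl lists (6.49% and 18.2%). All genes moved the same way, with 58.2% and 37.7% marked in NextA, against 6.18% and 17.9% in Ctrl, and open genes had 92.4% and 59.8% in NextA, against 10.7% and 26.2% in Ctrl. Of 59 members without a peak in either Ctrl list, 38 had one in both NextA lists and were called gained (64.4%), against a background of 24.8% of all genes and 50.6% of the open genes that could be gained. Among the 51 such members open in Ctrl cells, 35 were gained (68.6%). The large subunit gave 24 of 37 gained and the small subunit 14 of 22. Of the other 21, 19 had a peak in 1 NextA list, and MRPL34 and MRPL22 had none in either. None was lost of the 1 member that could be, with a background of 0.0%.

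That member was MRPL36, the counterpart of the smallest protein of the bacterial large subunit, with folds of 4.57 and 2.98 in NextA and 3.57 and 2.35 in Ctrl. It is the one member marked in all 4 lists. By the same rule 42 of 58 nuclear oxidative phosphorylation genes were gained (72.4%), 17 of 22 genes of mitoribosome assembly and mitochondrial RNA (77.3%) and 14 of 27 other mitochondrial translation genes (51.9%). The last group includes the ribosomal proteins DAP3, PTCD3 and AURKAIP1. Of 85 cytosolic ribosomal protein genes, 27 and 57 were already marked in the Ctrl lists, so only 17 could be gained, and 12 were (70.6%).

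Among the gained members MRPL19 had the highest mean percentile, with NextA folds of 5.55 and 2.63 at percentiles of 98.9 and 90.5. MRPL55 followed (4.36 and 2.66), then MRPL27 (3.94 and 3.10), the counterpart of a bacterial protein beside the peptidyl transferase centre, MRPL44 (3.87 and 3.11), which has a ribonuclease III fold, and MRPL24 (3.80 and 3.33). MRPL9 had folds of 3.86 and 2.85, MRPS22 3.93 and 2.64, MRPL2 5.95 and 2.36 and MRPL4 3.66 and 2.76. MRPL2 is a protein of the catalytic core and MRPL4 one of the exit tunnel. MRPL17 had 3.99 and 2.48, MRPL41 4.35 and 2.39, MRPS16 4.06 and 2.44, MRPL54 5.10 and 2.31, MRPL37 4.17 and 2.36 and MRPS23 3.87 and 2.41. Over all 38, the fold ran from 3.02 to 5.95 (median 3.93) in the first NextA list and from 1.95 to 3.33 (median 2.29) in the second.

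The small family of MRPS18A, MRPS18B and MRPS18C, paralogs that each descend from the gene of the same bacterial protein, was not called alike. MRPS18A, which sits in the large subunit, was gained at folds of 3.85 and 2.27, and MRPS18B at 3.89 and 2.23. MRPS18C had a fold of 3.75 in the first NextA list and no peak in the second, so it was not gained. In that second list the −log10 q was only 0.162 at MRPS18A and 0.120 at MRPS18B, so the unlike calls rest on weak peaks. None of the 3 had a pan-acetyl peak in Ctrl. MRPS18A had no HDAC6 peak in any of the 4 Ctrl lists, while MRPS18B and MRPS18C had one in the CST ChIP list, at folds of 3.34 and 3.73, and in both CUT&Tag lists.

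The peaks were weak and their order differed between replicates. The −log10 q of the 38 ran from 1.25 to 11.2 in the first NextA list but from 0.102 to 1.58 in the second, a list that the authors called on p. MRPS25 stood at percentiles of 94.2 and 3.96 and MRPS15 at 91.1 and 3.82, while MRPS23 (73.8 and 73.0) and MRPL1 (53.1 and 52.8) were level. With a −log10 q of at least 5, 16 members stayed in the first NextA list and 0 in the second. In either Ctrl list 0 stayed, so 0 were gained. Of all genes, 3545 and 71 stayed in the NextA lists and 7 and 175 in the Ctrl lists. Among the 1418 strongest peaks of each list, 5 and 8 members were marked with NextA, against 5 and 2 in Ctrl. Of these members 0 were gained. Of all genes these peaks marked 1367 and 538 with NextA and 1235 and 426 in Ctrl, and 39 were gained. With so few genes gained, the cut cannot tell whether the call at members holds. The lists held 28473 and 61186 peaks with NextA, against 1418 and 41411 in Ctrl, and the part of list length in the result was not tested beyond this. By HDAC6 marking in Ctrl cells, 2 of 3 members marked in no HDAC6 list were gained, 5 of 11 marked in 1 list, 10 of 15 in 2, 19 of 27 in 3 and 2 of 3 in 4. Over all genes the same shares were 2.19%, 18.0%, 41.5%, 56.4% and 56.0%. Over open genes they were 14.9%, 34.7%, 48.6%, 57.9% and 57.4%, while the members counted here include some that were not open. The members' shares stand on few genes at either end. MRPL19 and MRPL40 are among the gained; MRPL11, the other member with HDAC6 in all 4 lists, had a fold of 3.16 in the first NextA list and no peak in the second.

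**Figure D3:**
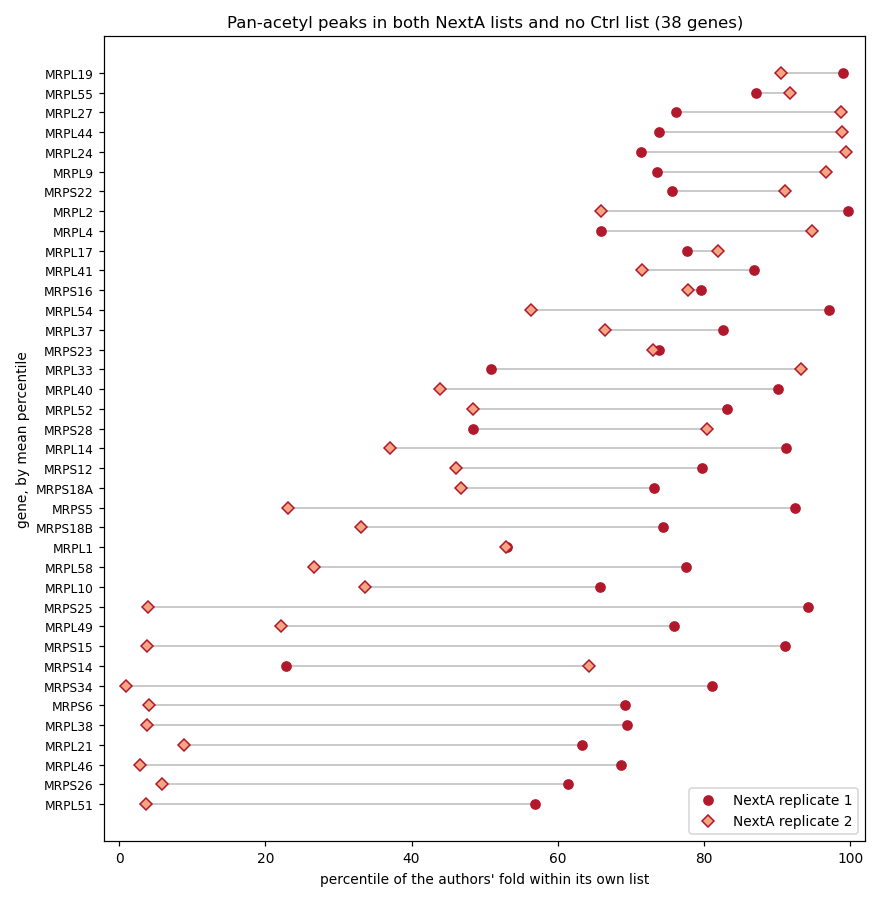
Within-list percentile of the peak fold (horizontal axis) at the 38 members with a pan-acetyl peak in both NextA lists and neither Ctrl list (vertical axis, by mean percentile), with replicate 1 as circles and replicate 2 as diamonds. MRPL19 stands above the 90th percentile in both lists, while MRPS25 and MRPS15 stand at 94.2 and 91.1 in the first and 3.96 and 3.82 in the second.

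PolII stayed at the members with NextA. It was found at 76 and 75 members with NextA, against 76 and 76 in Ctrl, and 74 were marked in all 4 lists. None of 75 members was lost (background 0.0844%), and no member was unmarked in both Ctrl lists and able to be gained (background 0.93%). To compare heights without an effect of list length, each start with a peak in every list of a comparison was given its position, the percentile of its fold among those starts. Of 74 members, 11 had both NextA positions above both Ctrl positions (14.9%, background 12.7%) and 9 had both below (12.2%, background 12.1%), shares near those of all genes. Averaged over the 2 lists of a group, the median position of members was 52.4 with NextA, against 51.7 in Ctrl. An exact permutation of 2 lists against 2 cannot reach a p under 0.05, and no test was made.

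After knockdown PolII also stayed. It was at 76 members in both shHDAC6 lists, against 75 in both shCtrl lists, and none of 75 was lost (background 1.02%). The exception was MRPL45, which lies at the exit tunnel and helps to hold the ribosome to the inner membrane: it had folds of 3.65 and 3.22 in shHDAC6 and no peak in either shCtrl list, which made it 1 of 2 members that could be gained (background 1.95%). The gene also had PolII peaks in both Ctrl lists, at folds of 4.57 and 4.33, and in the first NextA list at 3.59. Under a −log10 q of at least 5 it was not called, and MRPL47 and MRPS22 were instead, without a share over all genes to set beside them. MRPL23 had no peak in any of these 4 lists.

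Positions after knockdown lay apart at most genes. Of 75 members, 23 had both shHDAC6 positions above both shCtrl positions (30.7%, background 40.1%) and 32 had both below (42.7%, background 39.4%). The 2 lists of a group resembled each other closely here. The median SD of member percentiles was 2.34 points in shHDAC6 and lower in shCtrl, against 9.78 in NextA and 12.2 in Ctrl. Every shHDAC6 and shCtrl list of PolII was called on p. In NextA and in Ctrl the first PolII list was called on q and the second on p. What this did to the SD was not tested. The median member position was 70.7 and 69.3 in shHDAC6, against 74.1 and 70.1 in shCtrl. In the same lists the other mitochondrial translation genes stood at 65.7 and 64.8 in shHDAC6, against 79.8 and 82.8 in shCtrl.

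At 15 members the PolII groups did not overlap in either comparison, which is 20.3% of the 74, against a background of 19.9%. For 10 of these the 2 differences had opposite signs (13.5% of the 74, background 9.55%). As a share of the genes apart in both, that is 66.7% of members and 48.0% of all genes. The members were apart in both about as often as all genes. MRPL58, a peptidyl-tRNA hydrolase built into the large subunit that frees stalled ribosomes, had positions of 93.6 and 97.6 with NextA, against 63.1 and 79.5 in Ctrl. After knockdown it had 65.8 and 64.6 in shHDAC6, against 93.8 and 91.2 in shCtrl. It stood higher with the inhibitor and lower with the hairpin. MRPS16 did the reverse: it had 72.7 and 41.7 with NextA, against 83.3 and 75.6 in Ctrl, and 69.9 and 76.8 in shHDAC6, against 50.6 and 48.9 in shCtrl. MRPS5, at the entry for the message, had 98.1 and 95.5 with NextA, against 37.6 and 94.4 in Ctrl, and 66.5 and 69.3 in shHDAC6, against 85.2 and 78.1 in shCtrl. MRPL4 had 80.1 and 55.8 with NextA, against 5.25 and 53.3 in Ctrl, and 35.7 and 40.4 in shHDAC6, against 40.8 and 45.8 in shCtrl. In MRPS5 and MRPL4 the first Ctrl list carries most of the inhibitor difference.

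MRPL11 and MRPL33 stood higher in both comparisons. MRPL11 had positions of 18.7 and 27.9 with NextA, against 0.794 and 17.1 in Ctrl, and 89.9 and 93.0 in shHDAC6, against 47.0 and 72.0 in shCtrl. MRPL33 had 63.6 and 99.2 with NextA, against 21.3 and 62.6 in Ctrl, and 98.5 and 98.0 in shHDAC6, against 94.3 and 92.1 in shCtrl. The largest single differences, named after their values were seen, were at MRPL52 after knockdown (17.9 and 36.4 in shHDAC6, against 91.1 and 93.3 in shCtrl) and at MRPL37 with the inhibitor (84.2 and 82.0 with NextA, against 19.5 and 32.7 in Ctrl). Further large differences after knockdown, also named after their values were seen, were at MRPL34 (18.5 and 23.2 in shHDAC6, against 59.4 and 68.4 in shCtrl) and MRPL53 (93.0 and 88.0 in shHDAC6, against 56.6 and 50.5 in shCtrl). The remaining members apart in both comparisons were MRPL12, MRPL17, MRPL18, MRPL20, MRPL21, MRPL24, MRPL41, MRPL50 and MRPL57. Of these MRPL17 and MRPL41 stood lower in both, MRPL57 stood higher in both, and the others changed sign between the inhibitor and the hairpin. The scatter of the 2 PolII differences shows members in all 4 quadrants.

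**Figure D4:**
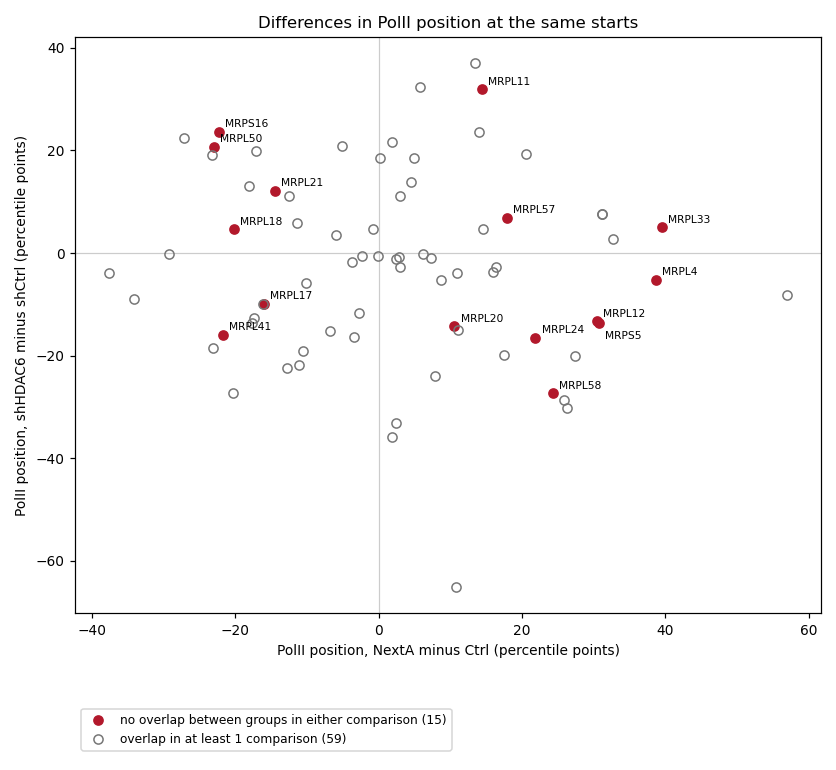
Difference in PolII position (percentile points) between NextA and Ctrl (horizontal axis) and between shHDAC6 and shCtrl (vertical axis) for the 74 members with a PolII peak in every list of both comparisons. Filled circles are the 15 members whose groups overlap in neither comparison, 10 of which lie in the upper left or lower right quadrant.

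Open chromatin at members changed little in presence. ATAC marked 74, 73 and 74 members with NextA, against 72, 73 and 72 in Ctrl, and 75, 72 and 74 in shHDAC6, against 72, 73 and 73 in shCtrl. With NextA none of 68 members was lost (background 0.111%) and none of 2 was gained (background 0.164%). After knockdown none of 70 was lost (background 0.323%) and none of 2 was gained (background 0.466%). With 3 lists against 3 the smallest exact permutation p is 0.1.

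In ATAC height, 2 of 68 members stood higher in all 3 NextA lists than in any Ctrl list (2.94%, background 3.29%) and 3 stood lower (4.41%, background 3.84%), shares near those of all genes. Taken as same-numbered pairs, a reading added after values were seen, 15 stood higher in all 3 pairs (22.1%, against 12.7% of all genes) and 10 lower (14.7%, against 13.8%). The lower ones without overlap were MRPL15, MRPL53 and MRPL41. MRPL15 had positions of 6.27, 7.79 and 11.1 with NextA, against 48.1, 69.1 and 38.4 in Ctrl, and folds of 5.19, 5.13 and 5.26, against 9.07, 9.52 and 7.32. Its position fell by 43.4 points, while the SD was 2.49 with NextA and 15.7 in Ctrl (n = 3 each). It is also 1 of the 6 members that lost HDAC6, and its start is a gene end chosen by its peaks. MRPL53 had 35.6, 32.5 and 38.6 with NextA, against 52.5, 56.0 and 60.1 in Ctrl. MRPL41 had 11.4, 8.67 and 6.32 with NextA, against 21.5, 28.8 and 23.5 in Ctrl. The higher ones without overlap were MRPL47, with 97.3, 97.8 and 90.7 against 85.4, 75.9 and 75.9, and MRPL55, with 50.8, 57.3 and 53.5 against 43.9, 47.9 and 40.2, in each case NextA against Ctrl.

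After knockdown 8 of 68 members stood higher (11.8%, background 6.25%) and 3 lower (4.41%, background 6.2%). The higher ones were MRPS26, MRPS31, MRPL9, MRPL21, MRPL20, MRPL12, MRPL32 and MRPS34. MRPS26 had positions of 83.5, 59.2 and 83.2 in shHDAC6, against 23.3, 47.1 and 35.5 in shCtrl. MRPS31 had 79.7, 84.6 and 68.0 in shHDAC6, against 63.1, 34.6 and 18.3 in shCtrl, and MRPL9 had 86.4, 74.9 and 97.6 in shHDAC6, against 39.8, 60.5 and 56.4 in shCtrl. MRPL12, the mobile stalk protein that is also known to bind the mitochondrial RNA polymerase, averaged 33.2 ± 6.04 in shHDAC6, against 8.23 ± 6.01 in shCtrl (SD, n = 3 each). The differences at MRPL32 and MRPS34 were small, at 3.39 and 2.41 points.

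The lower ones were MRPS16, MRPL49 and MRPL50. MRPS16 had 24.5, 41.3 and 39.8 in shHDAC6, against 59.9, 63.2 and 52.9 in shCtrl, the opposite direction to its PolII position in the same cells. MRPL49, whose start lies 49 bp from that of the cytosolic ribosomal gene FAU, had 38.7, 41.6 and 32.9 in shHDAC6, against 60.4, 49.9 and 65.2 in shCtrl. MRPL50 had 92.0, 98.8 and 86.5 in shHDAC6, against 98.8, 99.9 and 99.4 in shCtrl, where the highest shHDAC6 and the lowest shCtrl value round to the same figure. No member lay apart in ATAC in both the inhibitor and the knockdown comparison. The plot of ATAC positions shows each list.

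**Figure D5:**
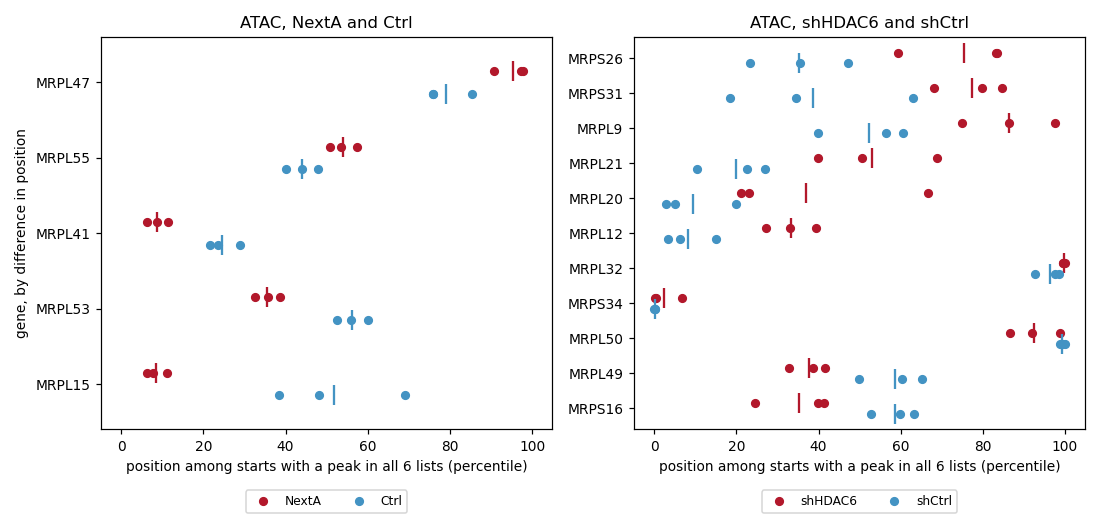
ATAC position (horizontal axis, percentile among starts with a peak in all 6 lists of the comparison) of the members whose groups do not overlap, for NextA and Ctrl (left, 5 members) and shHDAC6 and shCtrl (right, 11 members). Each circle is a list and each vertical tick the mean of 3; MRPL15 stands between 6.27 and 11.1 with NextA, against 38.4 to 69.1 in Ctrl.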

How the data were processed

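The files are 1 peak list per sample, not pooled, for 32 of 41 samples. Per the submitters' processing notes, which give no roles, the tools were ChIPseeker 1.28.2, MACS2 2.2.7.1, deepTools 3.5.1, SAMtools 1.13, Bowtie2 2.4.4 and Trim Galore 0.6.7 on hg38 (GRCh38). Each deposited line holds a score, a fold over the caller's background (a linear ratio), a −log10 p and a −log10 q, all made by the authors, and ATAC lines also a summit offset. Some lists were called on q, and others on p with gaps in the peak numbering; what this did to their lengths was not tested. The peak names of the second NextA HDAC6 list start with a tag found elsewhere only in shCtrl lists. In 1 of the CUT&Tag lists they start with a hairpin tag. Both kept the group of their labels. At most 0.128% of intervals were identical between any 2 lists.

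Repeated lines of an interval were merged (Python 3.11.15, pandas 2.3.3, NumPy 2.4.6; figures by matplotlib 3.10.9). Gene positions and starts came from RefSeq tables (GRCh38.p14). On members of known start, choosing the end with more peaks gave the right end for 64, a tie for 2 and the wrong end for 3. On all genes of known start it gave the right end for 11526, a tie for 2383 and the wrong end for 1902. Among all 19970 genes, 3293 had their start chosen this way and 866 used both ends, so the backgrounds rest on a less accurate placement. A gene was gained when every treated and no control list had a peak, and lost in the reverse case. An exact permutation of 2 or 3 lists a group cannot reach a p under 0.05 for a single gene, and no test was made. Backgrounds are the same calls over all genes that could be called. The calls were run on simulated lists of equal length with planted peaks, which checks the code only. Those lists do not copy the unequal lengths or the disagreement between replicates seen here. In ATAC of NextA and Ctrl cells, deviations of positions from the group mean correlated across genes between same-numbered lists (r of 0.527, 0.213 and 0.213), so these lists were also read as pairs, although lists 2 and 3 correlated as well with each other's partner (0.230 and 0.213). Alternatives were windows of 500 bp and 3 kb, either gene end, an overlap of 200 bp, lists cut to equal length, peaks with −log10 q ≥ 5 only, ordering by −log10 p, same-numbered pairs and leaving out each list.

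The members, the gene lists and the rules were chosen with earlier results of these data known. Members were named when lost or gained (up to 15 a direction), marked by HDAC6 in all 4 control lists, among the 5 highest or 3 lowest in Ctrl ATAC or PolII, missing from a Ctrl ATAC or PolII list, apart in both the inhibitor and the knockdown comparison (up to 6) or sharing a window (up to 6).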

Additional observations from a re-analysis of the deposited data

Results flagged for a closer look

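At 4 of the 6 members described above as apart in both PolII comparisons, the PolII position differed between NextA and Ctrl in one direction in every list and between shHDAC6 and shCtrl in the other, without overlap in either. The difference between the 2 effects was not tested. Of all genes apart in both comparisons, 48.0% also had opposite signs, which is 9.55% of the genes marked in every list of both. The inhibitor difference minus the hairpin difference was 51.7 points at MRPL58 (24.3 with the inhibitor and -27.3 with the hairpin), -45.9 at MRPS16 (-22.3 and 23.6), 44.5 at MRPS5 (30.8 and -13.7) and 43.9 at MRPL4 (38.7 and -5.2).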

How the results depend on the processing

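Of the recomputed values, 180 stayed within 1.5 times the reported count and 43 did not. With a −log10 q of at least 5, 0 members were gained in pan-acetyl, 0 lost HDAC6 and 0 had HDAC6 in all 4 control lists. Under this floor 2 gained PolII after knockdown (MRPL47 and MRPS22). No share over all genes was computed for these calls, so they cannot be set against a background. With equal list length, 0 were gained in pan-acetyl, 0 lost HDAC6 and 2 gained PolII after knockdown (MRPL28 and MRPL45). Over all genes the same counts were 39, 0 and 477. Ordered by −log10 p, 4 members stood higher in ATAC and 3 lower in PolII with NextA. Leaving out 1 list, the members with HDAC6 in all control lists ran from 3 to 36 and the members that lost HDAC6 from 6 to 54, the high values without the Novus Ctrl ChIP list. Those that lost PolII with NextA ran from 0 to 1 (MRPL45, without the first NextA list, where 0.535% of all genes were lost). Those gained in pan-acetyl ran from 41 to 54, against 27.2% to 50.1% of all genes that could be. Fewer lists make non-overlap easier by construction: with NextA, 24 to 29 members stood higher and 16 to 23 lower in PolII, and 3 to 10 higher and 4 to 9 lower in ATAC, while after knockdown 9 to 16 stood higher and 5 to 11 lower in ATAC. The share over all genes was not computed for these position counts or for the ordering by −log10 p. Windows of 500 bp and 3 kb, either gene end, an overlap of 200 bp and leaving out the 8 members without a RefSeq start, an alternative chosen after values were seen, moved no count by over 1.5 times. With a replicate block, members that stood higher or lower in every same-numbered pair were counted, which asks less than no overlap. In ATAC with NextA they were 15 and 10 (22.1% and 14.7%), against 12.7% and 13.8% of all genes. In ATAC after knockdown they were 13 and 8 (19.1% and 11.8%), against 14.03% and 14.15%. In PolII with NextA they were 24 and 16 (32.4% and 21.6%), against 25.96% and 24.15%. In PolII after knockdown they were 25 and 38 (33.3% and 50.7%), against 43.64% and 42.89%. Deviations of same-numbered lists correlated at 0.417 in PolII with NextA, 0.129 in PolII after knockdown and -0.00739 to 0.0269 in ATAC after knockdown. For gained and lost calls the paired call is the call itself. Read depth is unknown, which limits every absent peak.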
